A study of Homo sapiens with 6 samples.

Results

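The genes described here encode RNA polymerase II, the Mediator complex and the general transcription factors, in HEY cells after PQBP1 knockdown. They were chosen by name from the deposited gene table: POLR2 with a letter from A to M, MED or TAF with digits, and the genes of TFIIA, TFIIB, TFIIE, TFIIF and TFIIH whose names start with GTF2. Of 105 names that start in this way, 2 with a hyphen and 9 that end in P and digits were left out, which left 94 of the 32679 genes in the table. These 94 gene identifiers carry 92 symbols: 18 identifiers of RNA polymerase II and its POLR2J copies, 30 of Mediator, 17 of TFIID and its paralogs, 14 of the other general factors, 7 TAF genes of other complexes, 7 TAF11 copies and the antisense gene MED14OS. HEY is an established human ovarian cancer cell line. Gene expression was measured by paired-end RNA sequencing in 3 samples with the control hairpin (shNC, treatment given as none) and 3 samples with the hairpin against PQBP1 (shPQBP1, doxycycline at 1 µg per ml), all at day 3. Hairpin and doxycycline therefore differ together between the groups and cannot be told apart. The comparison asks how expression of these genes differed when PQBP1, a splicing factor, was depleted.

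RNA polymerase II transcribes protein-coding genes and many non-coding RNAs. TFIID, made of TBP and TBP-associated factors (TAFs), recognises the core promoter, and TFIIA, TFIIB, TFIIE, TFIIF and TFIIH join it to place the polymerase, melt the DNA and release the polymerase from the start site. Mediator bridges the polymerase and DNA-bound activators through its head, middle and tail modules, with MED14 as the scaffold and a kinase module that binds reversibly.

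The unit is FPKM, fragments counted per kilobase of transcript and relative to all mapped fragments. PQBP1 itself was at 7.18, 6.67 and 6.93 FPKM in shNC samples 1 to 3 and at 1.68, 1.72 and 1.44 in shPQBP1 samples 1 to 3. The groups did not overlap, and the log2 fold change was -2.04 (SE 0.10, adjusted p = 0.00154, limma). Among markers of ovarian carcinoma and epithelial cells, PAX8, KRT7, KRT8 and KRT18 were all above 12 FPKM in every sample, whereas CDH1 and MUC16 were at or near 0, EPCAM was near 1 and WT1 was below 1. Of other cell types, PTPRC was at 0 in all 6 samples and the endothelial gene VWF was at 0.01 to 0.04 FPKM. Some markers were separated between the groups: PAX8 (12.3 to 15.7 FPKM in shNC, 18.4 to 24.1 in shPQBP1), WT1 (0.63 to 0.71 and 0.31 to 0.45), the mesenchymal gene VIM (1112 to 1227 and 1272 to 1343), and the endothelial genes CDH5 (2.11 to 2.96 and 3.10 to 3.64) and PECAM1 (0.23 to 0.25 and 0.02 to 0.06). Their part in the results was not tested. In such bulk samples, fewer cells of a kind and less RNA per cell cannot be told apart. shNC sample 1 stood somewhat apart, with correlations of 0.926 to 0.955 with the other 5 samples over the tested genes, and it was the shNC sample farthest from the group median in 43 of the 80 members tested.

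Taken in both directions, the shares of these genes that passed each threshold lay close to those of all genes. The differences between these shares were not tested. Of the 94 members, 80 had a mean of at least 1 FPKM and were tested on log2(FPKM + 0.1) with limma. Fold changes below are on that scale, shPQBP1 over shNC. At an adjusted p under 0.05, 1 of the 80 was called (1.25%), against 2.91% of all 11413 genes tested. It was lower (1.18% of all genes), and 0 members were called higher (1.73% of all genes). At an unadjusted p under 0.05, 17 members were called (21.2%, against 23.6% of all genes), of which 6 were higher (11.9% of all genes) and 11 lower (11.7% of all genes). By limma, 0 of the 80 passed a 2-fold change with an unadjusted p under 0.05 (1.52% of all genes), although 17 passed that p alone. In 28 members the 2 groups did not overlap (35%, against 34.4% of all genes), 12 with shPQBP1 higher (17.3% of all genes) and 16 with shPQBP1 lower (17.1% of all genes). The log2 fold change was above 0 in 40 members and below 0 in 40, with a median of -0.00097 beside 0.02 over all genes.

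**Figure D1:**
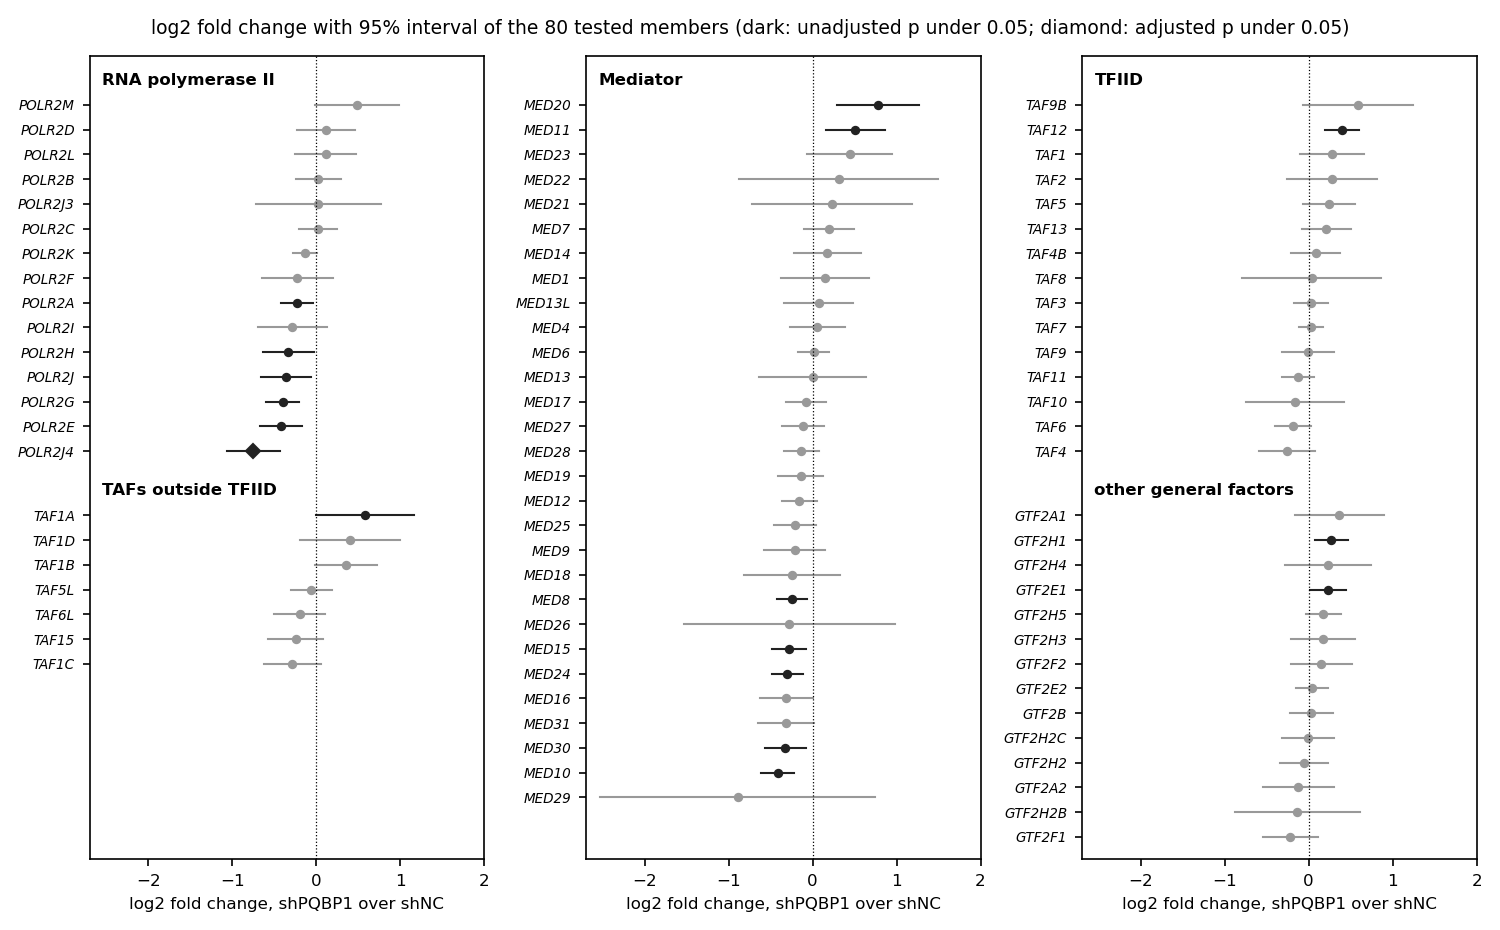
Log2 fold change (shPQBP1 over shNC, horizontal axis) with its 95% interval for each of the 80 tested members, ordered within each complex. Dark points have an unadjusted p under 0.05 and the diamond marks POLR2J4, the only member at an adjusted p under 0.05. Most intervals cross 0, and 72 of the 80 lie wholly within a 2-fold change.

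The intervals show what the 6 samples could resolve. In 72 of the 80 members the 95% interval of the fold change lay within a 2-fold change either way, and in 44 it lay within a 1.5-fold change. The median interval reached 0.32 to each side on the log2 scale. Beyond 0.5 on the log2 scale lay 6 members, which were POLR2J4, MED29, MED20, MED11, TAF9B and TAF1A.

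Of 15 tested members of RNA polymerase II, 9 had a lower and 6 a higher mean log2 value in shPQBP1, the median log2 fold change was -0.23, and 6 were lower and 0 higher at an unadjusted p under 0.05 (11.7% and 11.9% of all genes). Among the 12 subunits POLR2A to POLR2L, 8 were on the lower side, 5 of them at an unadjusted p under 0.05. Summed over these 12 subunits, FPKM was 307 ± 21.5 in shNC and 284 ± 13.2 in shPQBP1 (SD, n = 3 each), and the sums overlapped between the groups. Without POLR2L, an exclusion chosen after its values were seen, the sums were 242, 225 and 232 in shNC and 199, 206 and 209 in shPQBP1. FPKM summed over all genes was also lower in shPQBP1, at 278300 to 287400 against 295000 to 318500 in shNC. Whether the polymerase sums differed beyond that total was not tested.

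POLR2A encodes the largest subunit, which carries the catalytic centre and the C-terminal repeat domain. It was at 32.9, 31.1 and 32.1 FPKM in shNC and at 25.1, 28.4 and 28.4 in shPQBP1. Every shPQBP1 sample lay below every shNC sample, with a log2 fold change of -0.23 (SE 0.08, adjusted p = 0.157), which was -0.13 after correction for GC content and length. POLR2B, the second largest subunit and the other side of the active cleft, was at 28.8 ± 3.85 and 29.2 ± 0.39 FPKM, with overlapping groups.

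POLR2G encodes the stalk subunit RPB7. Its values were 22.5, 21.4 and 21.7 FPKM in shNC and 15.6, 16.2 and 17.9 in shPQBP1, every shPQBP1 sample below every shNC sample. The log2 fold change was -0.40 (SE 0.08, adjusted p = 0.0572), and the adjusted p ranged from 0.0389 to 0.263 over the alternative settings. POLR2D, the partner of POLR2G in the stalk, was at 5.47 ± 0.725 and 5.94 ± 0.803 FPKM, with overlapping groups.

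POLR2E, POLR2F, POLR2H, POLR2K and POLR2L are shared with RNA polymerases I and III. POLR2E was at 11.3, 9.26 and 10.5 FPKM in shNC and at 7.25, 8.15 and 7.67 in shPQBP1, without overlap, and had a log2 fold change of -0.42 (SE 0.10, adjusted p = 0.0867), which was -0.23 after the same correction. POLR2H was at 20.1, 16.5 and 18.9 FPKM in shNC and at 14.1, 13.2 and 16.8 in shPQBP1. Its shPQBP1 sample 3 lay above shNC sample 2, and the log2 fold change was -0.33 (adjusted p = 0.180), or -0.13 after the correction. POLR2K, at 56.7 to 58.7 FPKM in shNC and 52.2 to 53.3 in shPQBP1, was separated, with a log2 fold change of -0.14 (adjusted p = 0.229), or -0.39 after the correction. POLR2F overlapped between the groups (6.51 ± 1.02 and 5.57 ± 1.11 FPKM), as did POLR2L (73.9 ± 13.6 and 79.1 ± 8.23 FPKM). In POLR2L, shNC sample 1 was the highest of all 6 samples, at 89.5 FPKM. Its log2 fold change of 0.11 ran from 0.019 without shNC sample 3 to 0.26 without shNC sample 1, and was 0.30 after the correction.

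Of the assembly platform, POLR2J was at 23.9, 20.4 and 17.4 FPKM in shNC and at 15.5, 15.9 and 16.2 in shPQBP1. The shNC samples were widely spread but all above the shPQBP1 samples, and the log2 fold change was -0.36 (SE 0.12, adjusted p = 0.159), or -0.22 after the correction for GC content and length. Its partner POLR2C was at 21.1 ± 1.97 and 21.3 ± 0.886 FPKM, with overlapping groups. POLR2I, which is specific to RNA polymerase II, overlapped as well (9.96 ± 1.52 and 8.18 ± 1.45 FPKM). POLR2M, which encodes the polymerase-associated protein GRINL1A and is no core subunit, was on the higher side (5.10 ± 1.23 and 7.07 ± 0.96 FPKM, log2 fold change 0.48, adjusted p = 0.221), with shPQBP1 sample 2, at 5.96 FPKM, just below shNC sample 3, at 6.01. Its log2 fold change was 0.27 without shNC sample 1 and 0.22 after the correction.

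The sole member called at the adjusted threshold was POLR2J4, one of several copies of POLR2J on chromosome 7. This identifier (ENSG00000272655, chr7:44014603-44019113, minus strand, hg38) bears the name POLR2J4 in the deposited table, while GENCODE release 44 lists it with no such name as a transcribed unprocessed pseudogene, so it is not known to encode a subunit. It was at 5.33, 4.07 and 4.21 FPKM in shNC and at 2.57, 2.85 and 2.51 in shPQBP1. The groups did not overlap, and the log2 fold change was -0.75 (SE 0.13, adjusted p = 0.0416). The adjusted p was above 0.05 when any of shNC samples 2 and 3 or shPQBP1 samples 1 to 3 was left out (0.0812 to 0.167), whereas without shNC sample 1 it was 0.0355. Over all alternative settings it ranged from 0.0108 to 0.215.

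The POLR2J copies share so much sequence that their values are uncertain. The 324-base transcript of this POLR2J4 gene matches POLR2J at 315 of 323 aligned positions (97.5%), and how the authors' counting divided reads between the copies is not given in the sources used here. The POLR2J4 gene also lies within a longer non-coding gene of the same name on the same strand, which was at 0.48 to 0.55 FPKM in all 6 samples and was not tested. Of the 2 POLR2J3 identifiers, 1 was tested (2.04, 1.34 and 1.40 FPKM in shNC, 1.72, 1.03 and 2.26 in shPQBP1), with a log2 fold change of 0.02 whose sign changes with the sample left out. POLR2J2 was at 0 to 1.17 FPKM and the other POLR2J3 identifier at 0.20 to 0.40, both under the filter.

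**Figure D2:**
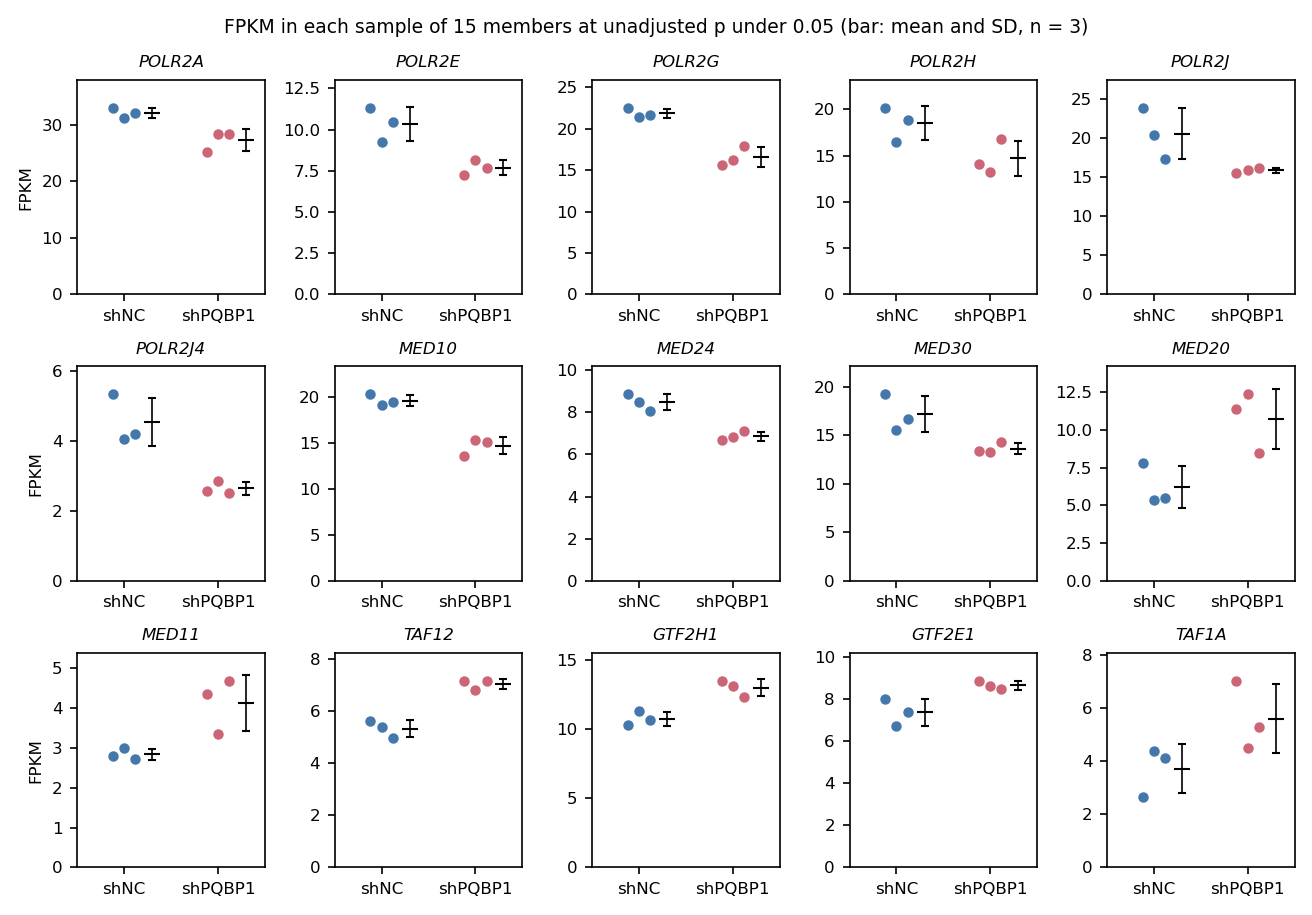
FPKM (vertical axes, each from 0) in the 3 shNC and 3 shPQBP1 samples for 15 of the 17 members at an unadjusted p under 0.05, with the group mean and SD beside the points. POLR2H is the panel in which the groups overlap.

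Of 29 tested Mediator members, 17 had a lower and 12 a higher mean log2 value, with a median log2 fold change of -0.13. At an unadjusted p under 0.05, 5 were lower (MED10, MED24, MED8, MED15 and MED30) and 2 higher (MED20 and MED11), beside 11.7% and 11.9% of all genes, and 0 passed the adjusted threshold. FPKM summed over Mediator was 238, 236 and 237 in shNC and 226, 216 and 226 in shPQBP1. These sums did not overlap between the groups, with means of 237 ± 1.33 and 223 ± 6.05. FPKM summed over all genes did not overlap either, at 295000 to 318500 in shNC and 278300 to 287400 in shPQBP1.

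In the head module, which contacts the polymerase, members stood on both sides. MED20 had the highest log2 fold change of all members. It was at 7.79, 5.33 and 5.49 FPKM in shNC and at 11.3, 12.3 and 8.49 in shPQBP1, without overlap (log2 fold change 0.78, SE 0.20, adjusted p = 0.0967, range 0.0424 to 0.273 over the alternatives).

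MED11 was at 2.80, 2.99 and 2.72 FPKM in shNC and at 4.35, 3.34 and 4.68 in shPQBP1, also without overlap (log2 fold change 0.51, SE 0.14, adjusted p = 0.113). MED8, which anchors MED20 and MED18 to the head, lay on the opposite side to MED20. Its values were 23.4, 21.2 and 21.8 FPKM in shNC and 18.9, 18.6 and 18.4 in shPQBP1, without overlap (log2 fold change -0.25, adjusted p = 0.123). MED6 (7.93 ± 0.391 and 7.99 ± 0.25 FPKM) and MED17 (2.21 ± 0.104 and 2.09 ± 0.0819 FPKM) overlapped between the groups, as did MED18, at 3.11 FPKM in shPQBP1 sample 2 and 5.13 to 5.86 in the other 5 samples.

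In the middle module, which with the head forms the core of the complex, MED10 was the member of Mediator with the smallest p. It was at 20.2, 19.1 and 19.4 FPKM in shNC and at 13.6, 15.3 and 15.1 in shPQBP1. The groups stood well apart, and the log2 fold change was -0.42 (SE 0.08, adjusted p = 0.0535, range 0.0213 to 0.263 over the alternatives). MED4, the most abundant Mediator transcript, was at 26.2 ± 4.27 and 27 ± 1.16 FPKM with overlapping groups and a log2 fold change of 0.06, which was -0.085 without shNC sample 1 and -0.18 after correction for GC content and length. In MED7, MED9 and MED19 the groups overlapped. MED1, the subunit through which many nuclear receptors bind Mediator, was at 11.2 ± 2 and 12.6 ± 3.25 FPKM, and MED31 was at 5.41 ± 0.893 and 4.29 ± 0.2 FPKM, both with overlapping groups.

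MED30, placed at the border of head and tail, was at 19.2, 15.6 and 16.7 FPKM in shNC and at 13.4, 13.3 and 14.3 in shPQBP1. All 3 shPQBP1 values lay below the shNC values, with a log2 fold change of -0.33 (SE 0.10, adjusted p = 0.133). MED28 at the same border was also separated, at 5.13 to 5.23 FPKM in shNC and 4.37 to 4.95 in shPQBP1. The scaffold MED14 (3.30 ± 0.609 and 3.72 ± 0.401 FPKM) overlapped.

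The tail module, the main contact of activators, had 6 of 7 members on the lower side and a median log2 fold change of -0.28. MED24 was at 8.84, 8.50 and 8.07 FPKM in shNC and at 6.68, 6.80 and 7.10 in shPQBP1, without overlap (log2 fold change -0.30, SE 0.08, adjusted p = 0.0982). MED15 was at 6.36, 6.34 and 6.76 FPKM in shNC and at 5.39, 5.63 and 5.01 in shPQBP1, also without overlap (log2 fold change -0.28, adjusted p = 0.130). After correction for GC content and length, these log2 fold changes were -0.15 and -0.09. The exception in direction was MED23, at 2.68, 4.70 and 3.96 FPKM in shNC and 4.58, 5.16 and 5.41 in shPQBP1, where the groups overlapped (log2 fold change 0.44, adjusted p = 0.252, and 0.22 without shNC sample 1). MED16 and MED27 overlapped between the groups, and MED25 was separated (3.80 to 4.47 and 3.36 to 3.65 FPKM) with an unadjusted p above 0.05 and a sign that changed with the correction.

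In the kinase module, MED12 was at 4.01 to 4.48 FPKM in shNC and 3.61 to 3.84 in shPQBP1, separated but with an unadjusted p above 0.05. MED13 (10.1 ± 3.33 and 9.70 ± 1.07 FPKM) and MED13L (1.97 ± 0.375 and 2.06 ± 0.185 FPKM) overlapped. For both, the lowest of the 6 values was in shNC sample 1.

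Some Mediator transcripts had a sample far from the others of its group. The 4 described next were singled out after their values were seen. MED29 of the tail was at 14.4, 12.8 and 13.6 FPKM in shNC and at 12.8, 2.21 and 13.4 in shPQBP1, so that its log2 fold change of -0.89 (SE 0.67, adjusted p = 0.432), the lowest of all members, came with 1 low sample and was -0.06 without shPQBP1 sample 2. Without MED29, summed Mediator FPKM was 222 to 223 in each shNC sample and 213 in each shPQBP1 sample. FPKM summed over all genes was lower in shPQBP1 as well, as given above, and a Mediator difference beyond that total was not tested. MED26, which recruits elongation factors, was at 1.64, 1.39 and 1.35 FPKM in shNC and at 1.48, 0.46 and 2.30 in shPQBP1, and its log2 fold change of -0.27 was 0.32 without shPQBP1 sample 2. MED22 was at 6.28, 1.54 and 4.78 FPKM in shNC and at 4.32, 4.31 and 4.93 in shPQBP1, and its log2 fold change of 0.31 was -0.28 without shNC sample 2. MED21 was at 10.8, 6.61 and 4.61 FPKM in shNC and at 12.9, 6.24 and 6.58 in shPQBP1. In MED29 and MED26 the low value was in the same sample, shPQBP1 sample 2.

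**Figure D3:**
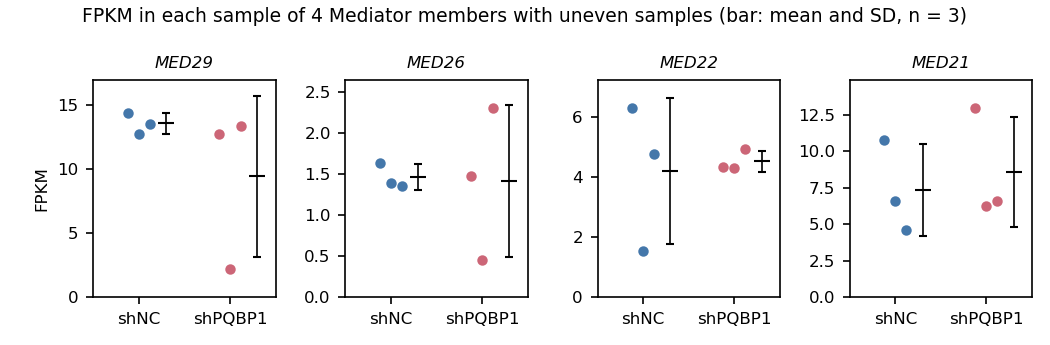
FPKM (vertical axes, each from 0) in each sample of MED29, MED26, MED22 and MED21, with the group mean and SD beside the points. In the shPQBP1 group of MED29, sample 2 is at 2.21 FPKM and the other 2 samples are at 12.8 and 13.4.

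Of 15 tested TFIID members, 10 had a higher and 5 a lower mean log2 value, the median log2 fold change was 0.04, and 1 passed an unadjusted p under 0.05 (23.6% of all genes). In 4 the groups were separated with shPQBP1 higher and in 2 with shPQBP1 lower (17.3% and 17.1% of all genes). The member at that p was TAF12, a histone-fold partner of TAF4. It was at 5.62, 5.39 and 4.99 FPKM in shNC and at 7.17, 6.82 and 7.15 in shPQBP1. All 3 shPQBP1 values lay above the shNC values, with a log2 fold change of 0.40 (SE 0.08, adjusted p = 0.0610, range 0.0257 to 0.266 over the alternatives).

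TAF4, the partner of TAF12 and the least abundant tested TFIID transcript, lay on the other side. Its values were 1.70, 1.83 and 2.25 FPKM in shNC and 1.60, 1.60 and 1.56 in shPQBP1, separated by a small margin (log2 fold change -0.26, adjusted p = 0.297, or -0.14 without shNC sample 3 and -0.11 after correction for GC content and length). TAF7, a regulator of the TAF1 acetyltransferase and the most abundant, was at 67 ± 1.07 and 68.2 ± 0.0635 FPKM, a log2 fold change of 0.03. TAF1, the largest subunit, was at 1.58, 2.19 and 2.18 FPKM in shNC and 2.43, 2.21 and 2.56 in shPQBP1, where the nearest values of the groups were 2.19 and 2.21.

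TAF9B, a paralog of TAF9, was at 5.30, 11.2 and 9.30 FPKM in shNC and at 13.3, 11.3 and 12.6 in shPQBP1. The log2 fold change was 0.59 (SE 0.27, adjusted p = 0.246), with shNC sample 1 far below the other 2, and was 0.28 without that sample. TAF9 itself was at 31.1 ± 5.1 and 30.8 ± 0.686 FPKM. TAF6, a histone-fold partner of TAF9, was separated on the lower side (5.20 to 5.95 FPKM in shNC, 4.69 to 5.01 in shPQBP1) with an unadjusted p above 0.05, and its log2 fold change changed sign with the correction for GC content and length. In TAF2, TAF3, TAF4B, TAF5, TAF8, TAF10, TAF11 and TAF13 the groups overlapped, and in TAF2, TAF3, TAF4B, TAF5, TAF8 and TAF13 the lowest of the 6 values was in shNC sample 1. Summed TFIID FPKM was 187 in shNC sample 1 and 218 to 223 in the other 5 samples, so the lower shNC mean (209 ± 19.3, against 222 ± 1.25) came with that sample.

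Of the other general factors, 14 were tested, 9 on the higher and 5 on the lower side, with a median log2 fold change of 0.10. At an unadjusted p under 0.05, 2 were higher and 0 lower (11.9% and 11.7% of all genes). GTF2H1, the p62 subunit of TFIIH, was at 10.3, 11.3 and 10.7 FPKM in shNC and at 13.5, 13.2 and 12.3 in shPQBP1, without overlap (log2 fold change 0.27, SE 0.08, adjusted p = 0.123, or 0.09 after correction for GC content and length). GTF2E1, the alpha subunit of TFIIE, was at 8.01, 6.73 and 7.40 FPKM in shNC and at 8.87, 8.63 and 8.48 in shPQBP1, also without overlap (log2 fold change 0.23, SE 0.09, adjusted p = 0.195). Its partner GTF2E2 was at 16.9 ± 0.953 and 17.4 ± 0.721 FPKM.

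The small TFIIH subunit GTF2H5 was separated as well (3.04 to 3.15 FPKM in shNC, 3.40 to 3.70 in shPQBP1), with an unadjusted p above 0.05 and a sign that changed with the correction. GTF2B, the only TFIIB gene and the factor that positions the polymerase at the start site, was at 15.1 ± 1.56 and 15.4 ± 0.974 FPKM. GTF2F1 of TFIIF, the most abundant, was at 33.1 ± 5.37 and 28.2 ± 2.31 FPKM, with overlapping groups and a log2 fold change of -0.22 (adjusted p = 0.353), which was -0.10 without shNC sample 1 and -0.03 after the correction. GTF2F2, its partner, was at 23.5 ± 4.19 and 25.9 ± 2.29 FPKM. GTF2A1 of TFIIA was separated (3.62 to 6.28 FPKM in shNC, 6.53 to 7.03 in shPQBP1) with an unadjusted p above 0.05. Its log2 fold change of 0.37 was 0.11 without shNC sample 1 and 0.06 after the correction. The partner of GTF2A1, GTF2A2, overlapped, as did GTF2H3 and GTF2H4 of TFIIH.

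GTF2H2 of TFIIH and its copies cannot be read apart with confidence, since the GTF2H2B transcript matches GTF2H2 at 1392 of 1395 aligned positions (99.8%). GTF2H2 was at 3.28 ± 0.347 and 3.14 ± 0.259 FPKM, GTF2H2C at 4.67 ± 0.636 and 4.62 ± 0.34, and GTF2H2B, the least abundant, at 2.48, 3.93 and 1.63 in shNC and 2.01, 2.26 and 2.61 in shPQBP1. The GTF2H2B log2 fold change of -0.14 was 0.17 without shNC sample 2.

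TAF genes also name subunits of other complexes. Of the 4 tested TAFs of SL1, the selectivity factor of RNA polymerase I at ribosomal RNA genes, TAF1A was at 2.67, 4.37 and 4.12 FPKM in shNC and at 7.02, 4.48 and 5.30 in shPQBP1. The groups did not overlap, but the nearest values were 4.37 and 4.48, and the log2 fold change was 0.58 (SE 0.24, adjusted p = 0.212), or 0.37 without shNC sample 1 and 0.38 after correction for GC content and length. TAF1B was also separated (5.16 to 7.74 and 7.80 to 8.49 FPKM), TAF1D overlapped (7.36 ± 2.27 and 9.45 ± 0.847 FPKM), and TAF1C was on the lower side (2.87 ± 0.36 and 2.33 ± 0.283 FPKM). TAF5L and TAF6L of the SAGA coactivator and TAF15, an RNA-binding protein, overlapped between the groups.

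The 14 members that were not tested had a mean below 1 FPKM. The 7 TAF11 copies were at 0 to 0.04 FPKM, 5 of them listed at 0 in all 6 samples. TAF1L and TAF7L, known for expression in testis, were at 0 to 0.10 FPKM. MED12L was at 0.25 to 0.42 FPKM in shNC and 0.13 to 0.19 in shPQBP1, and MED14OS at 0.35 to 0.42 and 0.19 to 0.27. The rest were the POLR2J copies given above.

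Levels of the tested members, those with a mean of at least 1 FPKM, spanned a wide range within each complex. Among tested RNA polymerase II genes the ratio of the highest to the lowest mean FPKM was 46.9, from POLR2L to POLR2J3. POLR2L and POLR2K were above all other subunits in every sample, followed in every sample by POLR2A and POLR2B. POLR2A was above POLR2B in all 3 shNC samples and below it in all 3 shPQBP1 samples. In Mediator the ratio was 18.5, from MED4 to MED26, in TFIID 38.5, from TAF7 to TAF4, and in the other general factors 12.3, from GTF2F1 to GTF2H2B. These are levels per length of transcript.

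**Figure D4:**
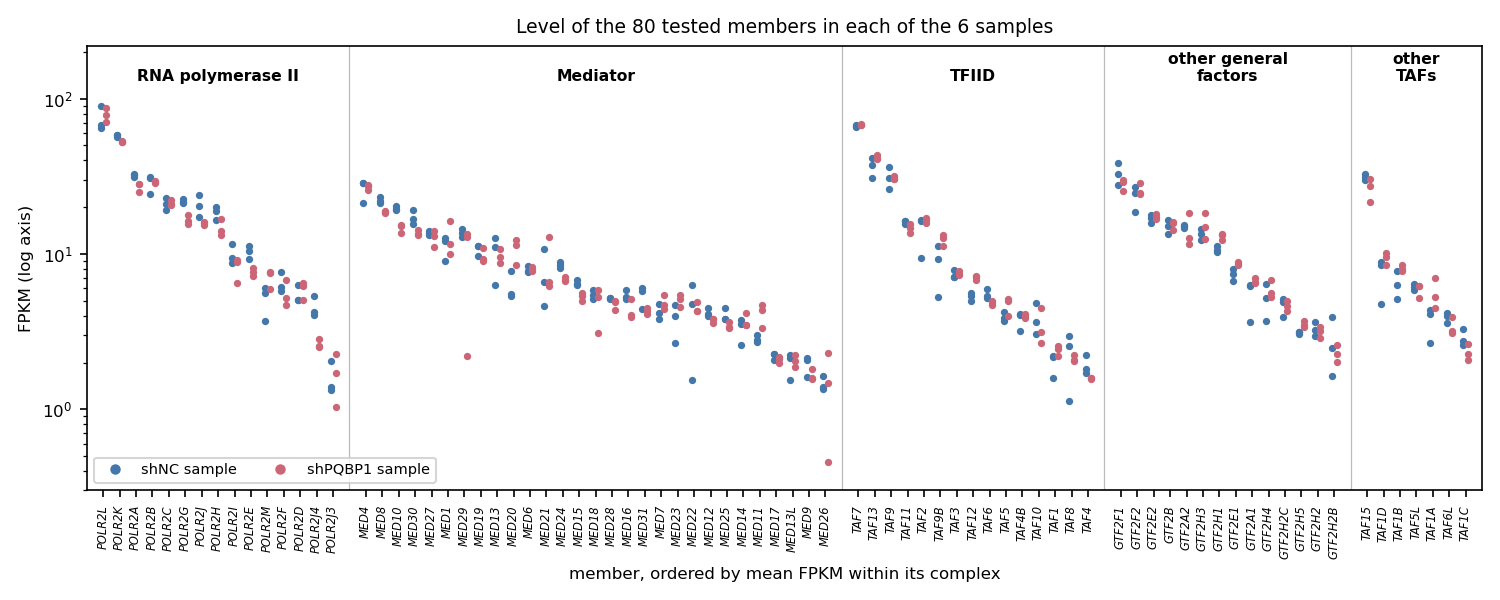
FPKM (log axis) of each of the 80 tested members in the 3 shNC and 3 shPQBP1 samples, ordered by mean within each complex. The order spans 46.9-fold in RNA polymerase II and 18.5-fold in Mediator, while most members have their 6 values close together.

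Promoter sequence is shown for the members with an adjusted p under 0.1 that have an entry in the RefSeq promoter table and 100 bases there free of annotated exons, taking the window nearest to the RefSeq start (GRCh38.p14, 5′ to 3′ along the gene). Capitals mark exact matches, on either strand, to any of 6 motifs searched: TATAAA for the TATA box, CCAAT for the CCAAT box, GGGCGG for the GC box, CCGGAAG for ETS factors, GCATGCGC for NRF1 and ATGGCGG for YY1. MED10 is at chr5:6378572-6378671, TAF12 at chr1:28643116-28643215 and POLR2E at chr19:1095381-1095480, all on the minus strand. Between window and RefSeq start lie 24, 48 and 5 bases, in that order. The TAF12 window lies inside the GENCODE span of the gene (chr1:28587829-28648291), which extends further upstream.
MED10: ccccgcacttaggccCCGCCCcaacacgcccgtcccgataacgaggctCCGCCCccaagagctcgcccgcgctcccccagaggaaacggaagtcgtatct
TAF12: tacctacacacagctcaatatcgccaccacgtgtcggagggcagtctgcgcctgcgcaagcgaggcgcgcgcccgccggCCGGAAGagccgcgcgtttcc
POLR2E: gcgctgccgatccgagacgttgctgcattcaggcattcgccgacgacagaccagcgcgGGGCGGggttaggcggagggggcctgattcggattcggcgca

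MED10 and POLR2E, both on the lower side, show GC box letters in these windows, and TAF12, on the higher side, shows the ETS letters. The other members with an adjusted p under 0.1 had no such window. These were POLR2J4, POLR2G and MED24 on the lower side and MED20 on the higher side. The few windows therefore cannot show a pattern by direction. Over whole 300-base promoters (250 before the start and 50 after it), 72 member symbols had an entry. The ETS letters were in 28 of them (38.9%), against 24.3% of 8156 tested symbols, the GC box in 48 (66.7%, against 78.8%) and the CCAAT box in 22 (30.6%, against 43.7%). The TATA box was in 6 (8.33%, against 7.83%), the NRF1 letters in 4 (5.56%, against 6.89%) and the YY1 letters in 12 (16.7%, against 13.7%). Of the members at an unadjusted p under 0.05 with an entry, the ETS letters were in 4 of 6 on the higher side and 1 of 6 on the lower side, and the GC box in 1 of 6 and 5 of 6. These are counts of letters and were not tested. The 72 member symbols were taken with no filter on FPKM, whereas the comparison symbols were genes with a mean of at least 1 FPKM.

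Fold change and GC content of the transcript varied together across the members. Across the 80 members, Spearman's rho between log2 fold change and GC content was -0.583, and it was -0.459 over all tested genes. Genes are not independent replicates, and all share the same 6 libraries. The median GC content was 55.5% in the 11 members lower at an unadjusted p under 0.05, 44.1% in the 6 higher ones and 45.6% in all members. In a fit on values corrected for GC content and length in every sample, the median log2 fold change was -0.13 for RNA polymerase II (-0.23 before), -0.09 for Mediator (-0.13), 0.02 for TFIID (0.04) and -0.04 for the other general factors (0.10). The tail of Mediator went from -0.28 to -0.09. Signs changed in 16 of the 80 members, 0 of which had an unadjusted p under 0.05 by limma, and 8 of the 17 members at that p moved by over 1.5 times. In that fit 4 members passed an adjusted p under 0.05, with 8.24% of all genes: MED20 (log2 fold change 0.83) and TAF12 (0.41) rose, and MED10 (-0.40) and POLR2J4 (-0.59) fell.

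**Figure D5:**
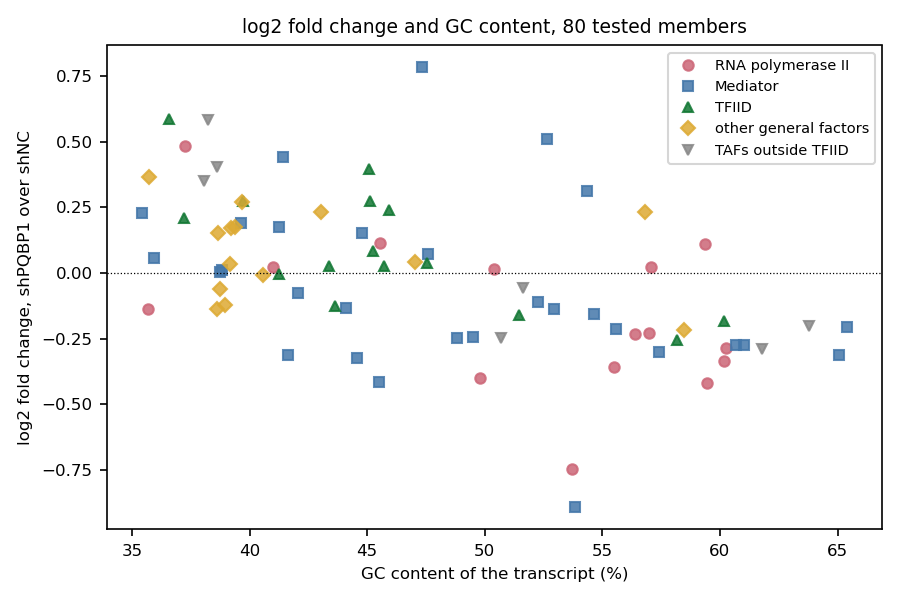
Log2 fold change (shPQBP1 over shNC, vertical axis) against GC content of the transcript in percent for the 80 tested members, with a symbol for each complex. Points lie higher at low GC content and lower at high GC content (Spearman's rho -0.583).

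Without shNC sample 1, the medians were -0.13 for RNA polymerase II, -0.11 for Mediator, 0.001 for TFIID and 0.04 for the other general factors. The part of GC content and of that sample in these differences was not tested further.

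Partners of the members whose names the rule does not cover were counted in the same fit. Of 13 tested (among them TBP, the kinases of Mediator and TFIIH, and the TBP regulators), 1 was higher and 3 were lower at an unadjusted p under 0.05, a threshold passed by 11.9% and 11.7% of all genes in those directions. CCNC, the cyclin of the Mediator kinase module, was at 6.61 ± 0.59 FPKM in shNC and 10.7 ± 3.25 in shPQBP1, with overlapping groups. The groups did not overlap in TBP, the DNA-binding core of TFIID (8.92 ± 0.511 and 7.64 ± 0.335 FPKM), ERCC3, the TFIIH translocase (7.20 ± 0.483 and 6.18 ± 0.185), or DRAP1, part of a repressor of TBP (87.8 ± 10.9 and 60.4 ± 4.05). Of 30 tested elongation and C-terminal domain factors, 2 were higher and 6 lower, and of 31 subunits and factors of RNA polymerases I and III, 2 were higher and 2 lower at that threshold. By limma, 0 genes of these 3 lists passed an adjusted p under 0.05 (2.91% of all genes). Their median log2 fold changes were -0.06, -0.05 and -0.06. After correction for GC content and length these medians were -0.15, 0.017 and -0.030. Without shNC sample 1 they were -0.14, -0.017 and -0.00017.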

How the data were processed

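RNA of HEY cells with shNC or shPQBP1 (3 samples each, labelled as biological triplicates) was sequenced. Per the authors' methods and processing notes, HISAT2 2.2.0 aligned the reads (hg38), SAMtools 1.9 handled sorting, StringTie 1.3.0 built transcripts and edgeR tested the groups. The annotation release is not given in the sources used here. FPKM values per gene and sample are as the authors deposited them, rounded to 2 decimals. The columns of the authors' own comparison (fold change, p-value and q-value) were not used.

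Depth is unknown: a search of single-exon genes (2147 to 2389 per sample) found no steps of whole reads (strength 0.167 to 0.204), so the spread between samples stands for all error. The 11413 of 32679 genes whose mean FPKM reached 1 were tested on log2(FPKM + 0.1) in limma 3.58.1 under R 4.3.3 (eBayes, trend on the mean). P-values are two-sided, and the Benjamini-Hochberg adjustment covers all 11413. The exact permutation test of 3 against 3 samples cannot give a p below 0.1. The fit was tested on simulated data.

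Members, lists and tests were chosen with earlier results of these data known. GTF2B was taken as a member although its name has no digits, and names were matched from their start. The named genes are PQBP1, members at an adjusted p under 0.05, up to 8 each with the highest and lowest fold changes at an unadjusted p under 0.05, POLR2A, and the most and least abundant tested member of each complex. Other members were named after their values were seen. Alternatives were median-of-ratios scaling, quantile normalization, other filters and pseudocounts, no trend, the replicate number as a block, correction for GC content and length (natural splines, 5 degrees of freedom each), whole-name matching, and leaving out each sample. Positions, transcripts and overlaps come from GENCODE release 44 on hg38, and promoters from RefSeq (GRCh38.p14). Copies were aligned with Biopython (version 1.88, Python 3.11.15).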

Additional observations from a re-analysis of the deposited data

How the results depend on the processing

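The count of members at an adjusted p under 0.05 (1 of 80) was 3 after quantile normalization (POLR2J4, MED10 and POLR2G; 3.65% of all genes), 2 with the filter raised to a mean FPKM of 10 (MED10 and POLR2G; 5.76%), 0 with no filter (0.619%) and 4 after correction for GC content and length (8.24%). It was 0 to 2 when 1 sample was left out: 2 without shNC sample 1 (POLR2J4 and TAF12; 4.07% of all genes), and 0 without any other (0.263% to 0.815%). The count at an unadjusted p (17) was 8 at a mean FPKM of at least 10, where 30 members were tested (26.1% of all genes passed), and 11 to 19 with 1 sample left out, the 11 being without shPQBP1 sample 1 (15.6% of all genes) and the 19 without shNC sample 1 (24.8%) or shNC sample 2 (25.8%). The count whose groups do not overlap (28) was 10 at that filter (37.6% of all genes there). The median log2 fold change (-0.00097) was -0.017 with median-of-ratios scaling, -0.056 after quantile normalization, -0.059 at the higher filter, -0.041 with the GC correction, with or without the block, and -0.097 to 0.012 with 1 sample left out.

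Samples with the same number did not deviate together (correlations -0.186, -0.138 and -0.0114), so the numbers were not taken as pairs. With the replicate block, 0 of 11413 genes passed the adjusted threshold, 0 members among them, and 11 members passed the unadjusted p (16.1% of all genes). With the block and the GC correction, 0 members passed the adjusted threshold (0.184% of all genes) and 11 the unadjusted p (21.2%). PQBP1 then had log2 fold changes of -2.04 (adjusted p = 0.0686) and -1.86 (adjusted p = 0.0543).

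The GC correction changed the sign of 16 of the 80 members. Among the members named with a log2 fold change, signs reversed for POLR2J3 (-0.071 after quantile normalization, -0.22 to 0.32 with 1 sample left out), MED26 (-0.73 to 0.32, the latter without shPQBP1 sample 2), MED22 (-0.28 to 0.70, the former without shNC sample 2), MED4 (-0.18 with the GC correction, with and without the block, and -0.085 to 0.13 with 1 sample left out, the former without shNC sample 1), TAF7 (-0.0086 in both GC fits) and GTF2H2B (-0.44 to 0.17, the latter without shNC sample 2). The causes were not tested. Of the 80 tested members, 33 overlap another gene on the same strand and 52 on the opposite strand, and whether the counting used strand is not given in the sources used here.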
